A study of Mus musculus with 2 samples.

Results

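Classical monocytes are the Ly6C-high blood monocytes that enter an inflamed liver through the chemokine receptor Ccr2 and can become macrophages there. They were taken here from single-cell RNA sequencing of immune cells from mice with experimental autoimmune hepatitis. A barcode was a member when Vcan, F13a1, Fn1 and Ccr2 together had at least 3 UMIs (unique molecular identifiers, 1 per captured RNA molecule) and more than Ace, Cd300e, Treml4 and Dnah12 together. It also needed at least 2 UMIs of Csf1r and Lyz2, no UMI of C1qa, C1qb, C1qc, Flt3, Cd3e or Cd79a, at most 1 UMI of Mpo and Elane, and under 0.5% of its UMIs from Camp, Ngp and Ltf. By this gate 1268 of 27478 kept barcodes were classical monocytes, 925 of 16666 in the WT library and 343 of 10812 in the KO library.

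The WT group held Bicd2fl/fl mice without the Cre transgene (Alb-WT), and the KO group held Alb-Cre Bicd2fl/fl mice, in which the albumin promoter drives Cre in hepatocytes. Bicd2 encodes an adaptor of the dynein motor. Both groups therefore carried the floxed allele, and both were immunised by intraperitoneal injection of 2.5 mg S-100, a liver extract supernatant in complete Freund's adjuvant, each week for 3 weeks. The series' design text describes hepatic immune cells from a Percoll gradient, red cell lysis and a sort of living cells, whereas the sample labels read peritoneal immune cells and give HFD as the treatment. This conflict was not resolved here. Ages and the number of mice pooled were not given in the sources used here.

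Each genotype had 1 library, so there was no replicate check, and no p-value is given. Every interval printed is a 95% interval that covers counting error only, and UMIs from 1 library share their mice and preparation. A difference between WT and KO is therefore a difference between 2 libraries. Levels are CPM, counts per 1000000 of the UMIs summed over the members of a library. A log2 ratio is KO over WT of CPM + 1, which understates the change of low genes, and called means past 2-fold.

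Interferon-gamma, made by T and NK cells, acts on monocytes through the receptor chains Ifngr1 and Ifngr2 and the kinases Jak1 and Jak2. Signalling leads to binding at gamma-activated sites in DNA and induces Irf1, a transcription factor that binds interferon-stimulated response elements. The target genes include guanylate-binding proteins, immunity-related GTPases, the T-cell attractants Cxcl9 and Cxcl10, and genes of antigen presentation.

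The WT library held 22197 barcodes and 81159013 UMIs, and the KO library 27033 barcodes and 63869430 UMIs. The libraries differed in haemoglobin RNA: it was 15.4% of all UMIs in WT and 38.7% in KO, and barcodes with over 10% were left out by the rule. Members had median depths of 4814 UMIs in WT and 4772 in KO, and summed to 5084039 and 1775803 UMIs. The 2 libraries shared 177 barcode sequences, of which 1 was a member in both. Bicd2 had 112 UMIs in WT members (22 CPM) and 19 in KO members (10.7 CPM). The Cre acts in hepatocytes and the place of the deleted part against the 3' reads was not checked, so this value does not check the labels. Xist was at 0 and the Y-linked gene Ddx3y was detected in the members of both libraries (62.0 and 67.0 CPM).

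The label was checked against Ly6c2 and Ms4a8a, classical monocyte genes that the gate does not use. Ly6c2, the gene of the Ly6C surface antigen, had 1760 CPM in WT members and 1152 CPM in KO members, against 321 and 40.7 CPM in nonclassical monocytes. With every cell thinned to 1000 UMIs, 68.1% of 861 WT members and 51.8% of 330 KO members had a Ly6c2 UMI (85.3% and 75.2% unthinned). B cells, which should lack it, had one in 8.77% and 1.97% of 604 and 1017 cells at that depth, from median depths of 2683 and 1968 UMIs before thinning. Ms4a8a, a four-pass membrane protein gene, had 101 CPM in WT and 162 CPM in KO members, against 57.1 and 19.4 CPM in nonclassical monocytes. Both genes were thus higher in the members than in the nearest monocyte gate, in both libraries. The 6 Kupffer cell markers summed to 3.74 CPM in WT and 2.25 CPM in KO. The 6 peritoneal macrophage markers, 4 of them detected in each library, summed to 450 CPM in WT and 89 CPM in KO (376 and 99.6 CPM in the narrowed set). Saa3, the gene of an acute-phase protein, made up nearly all of that sum, with 444 and 86.2 CPM. Timd4 and Gata6, which mark resident macrophages, had no UMI. The part of such cells in the results was not tested.

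The gate also admitted cells that carry lymphoid RNA, and more of them in WT. At least 2 UMIs of 16 T, NK and B genes were present in 277 WT members (29.9%, 27.0 to 33.0) and 23 KO members (6.71%, 4.3 to 9.89). Of the members, 227 in WT and 42 in KO had under 3 UMIs of Vcan, F13a1 and Fn1 and entered through Ccr2, which lymphocytes also express. The 8 NK markers summed to 1421 CPM in WT and 131 CPM in KO members, with all 8 detected in WT, and the 8 T markers to 189 and 65.3 CPM. A narrowed set was therefore described beside the members: at least 3 UMIs of Vcan, F13a1 and Fn1 without Ccr2, and under 2 lymphoid UMIs. It held 516 WT and 286 KO cells, with NK markers at 205 and 25.2 CPM and T markers at 75.5 and 24.6 CPM. It was chosen after the values had been seen. Scrublet, which marks likely doublets, marked 114 WT members (12.3%) and 12 KO members (3.50%), and 7.36% and 1.75% of the narrowed set. The part of doublets in the lymphoid RNA was not tested.

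At the edge of the gate, 139 WT and 22 KO barcodes with 2 gate UMIs met every other condition and stayed outside, and 99 and 16 with 3 UMIs were just inside. The median member had 11 gate UMIs in WT and 23 in KO. Those just outside had 439 CPM of Ly6c2 in WT and 187 CPM in KO, and those just inside 729 and 60.5 CPM. Among the gate genes, Vcan, a matrix proteoglycan, had 542 CPM in WT and 1243 CPM in KO, and Fn1, fibronectin, 795 and 1442 CPM. The members were selected on these UMIs, so their values are given as a description.

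Members made up 5.55% (5.21 to 5.91) of kept WT barcodes and 3.17% (2.85 to 3.52) of kept KO barcodes, 1.75-fold lower in KO (1.55 to 1.98). The size and the sign of this difference moved with the choice of cells. The shares of the narrowed set were 3.10% and 2.65%, 1.17-fold lower in KO (1.02 to 1.35). With every barcode thinned to 1000 UMIs before the gate, the log2 ratio of the shares was -0.04 (630 WT and 364 KO cells). With at most 1% haemoglobin it was 1.39, higher in KO (716 WT and 189 KO members), and with no haemoglobin limit it was -0.63. The share of haemoglobin UMIs in a member had a median of 0.504% in WT and 0.942% in KO. All kept barcodes had medians of 0.706% and 1.97%, so the 1% limit also removed most kept KO barcodes from the denominator. The part of haemoglobin in the difference was not tested.

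Nonclassical monocytes, the Ly6C-low cells that patrol vessels, went the other way. They were taken by the same rule with Ace, Cd300e, Treml4 and Dnah12 in the lead, and made up 1.01% (0.868 to 1.18) of kept WT and 3.27% (2.95 to 3.63) of kept KO barcodes. Their share was 3.23-fold higher in KO (2.69 to 3.87), and 2.82-fold (2.38 to 3.35) with no haemoglobin limit. Their median depth was 3894 UMIs in WT and 2588 in KO, and their median haemoglobin share 0.507% and 1.42%. The part of depth and haemoglobin in this difference was not tested. Among barcodes of either gate, 84.6% (82.3 to 86.6) were classical in WT and 49.2% (45.4 to 53.0) in KO. These counts include the members with lymphoid RNA, which were more frequent in WT. Macrophages positive for the complement genes C1qa, C1qb and C1qc were 0.810% and 0.999%, with intervals that overlapped.

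**Figure D1:**
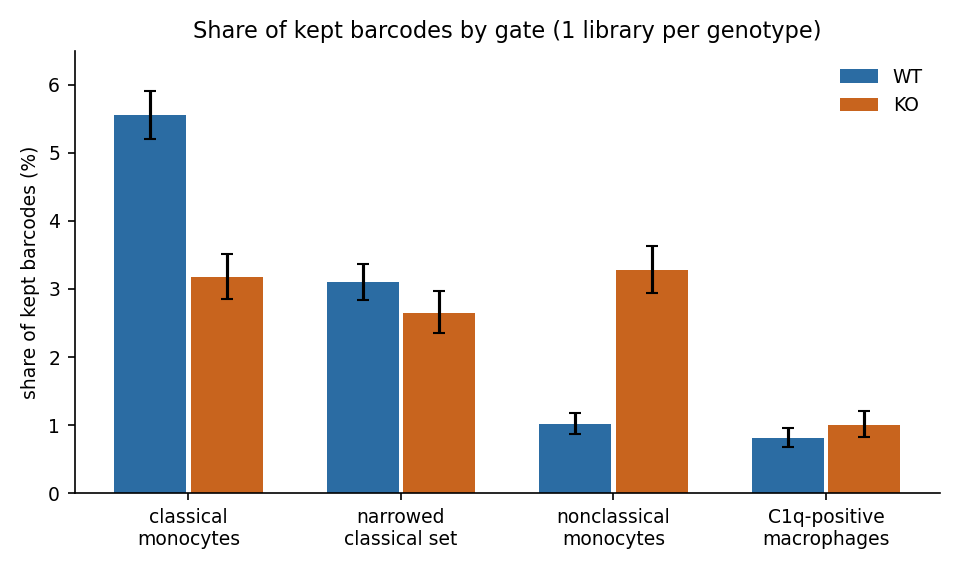
Bars give the share of kept barcodes (%) that met each gate in the WT and KO libraries, with exact 95% binomial intervals that cover counting error only. Classical monocytes were 5.55% in WT and 3.17% in KO, the narrowed set 3.10% and 2.65%, and nonclassical monocytes 1.01% and 3.27%.

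Targets of interferon-gamma were low in KO classical monocytes, and theirs was the only one of 22 gene lists with every gene compared past 2-fold in 1 direction. Of the 25 genes on the list, 22 had a mean of at least 10 CPM over the libraries and were compared, and all 22 were at least 2-fold lower in KO, with a median log2 ratio of -2.96. The background was 8314 genes compared, of which 482 (5.80%) were at least 2-fold lower and 123 (1.48%) at least 2-fold higher, with a median of -0.01. The narrowed set gave the same count, 22 of 22, with a median of -3.23, beside 335 of 8095 genes (4.14%) lower and 115 (1.42%) higher. NK and T markers were also higher in WT than in KO in the narrowed set (205 against 25.2 CPM and 75.5 against 24.6 CPM), and their part in the difference was not tested. Of the 3 genes under the minimum, Tgtp1, whose reads may be split with its near-identical copy Tgtp2, had 25 UMIs in WT and 0 in KO, Nos2 had 17 and 0, and Ido1 had none in either library.

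Promoters of 3 of these genes show which interferon motifs lie just upstream of their starts. The sequences are RefSeq's for GRCm38.p6, not the build of the files, and each covers the 250 bases before the annotated start, 5' to 3' on the gene's strand. Capitals mark matches on either strand to 2 motifs, the gamma-activated site TTCNNNGAA and the core of the interferon-stimulated response element, GAAANNGAAA. Cxcl10 was chosen as the listed gene with the largest fold, Gbp2 for its element close to the start, and Gbp5 because it holds both motifs.
Cxcl10 (chr5:92348890-92349139, minus strand): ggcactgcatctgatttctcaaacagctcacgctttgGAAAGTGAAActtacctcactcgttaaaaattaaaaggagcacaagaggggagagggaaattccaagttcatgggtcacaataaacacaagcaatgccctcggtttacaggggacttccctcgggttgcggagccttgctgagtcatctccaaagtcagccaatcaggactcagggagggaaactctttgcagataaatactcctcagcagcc
Gbp2 (chr3:142620413-142620662, plus strand): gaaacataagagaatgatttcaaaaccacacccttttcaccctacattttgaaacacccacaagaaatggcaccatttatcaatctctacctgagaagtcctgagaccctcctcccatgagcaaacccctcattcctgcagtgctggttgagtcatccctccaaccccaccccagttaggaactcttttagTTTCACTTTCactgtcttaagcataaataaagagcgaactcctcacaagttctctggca
Gbp5 (chr3:142496684-142496933, plus strand): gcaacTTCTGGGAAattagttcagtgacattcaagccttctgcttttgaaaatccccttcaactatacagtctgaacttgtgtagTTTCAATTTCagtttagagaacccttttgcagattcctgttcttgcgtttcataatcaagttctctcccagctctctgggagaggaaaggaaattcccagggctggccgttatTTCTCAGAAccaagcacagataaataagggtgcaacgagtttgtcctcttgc

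The element in Gbp2 lay 59 to 50 bases before the start and that in Cxcl10 213 to 204 bases before it. In Gbp5 the 2 gamma-activated sites lay 245 to 237 and 52 to 44 bases before the start, with an element between them at 165 to 156. Of the 25 listed genes, 19 were in the table, with 23 start windows. The response element core was in 12 of the 23 windows (52.2%), against 2.98% of all 32851 windows of the same length. The gamma-activated site was in 8 of 23 (34.8%), against 7.02% of all windows, and both motifs were in 6 (26.1%), against 0.332%. A match is a run of letters, not a measured site, and no binding was measured here.

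The T-cell attractants among the targets were lower in KO. Cxcl10, a ligand of Cxcr3 on T cells, had 566 CPM (546 to 588) in WT members and 14.1 CPM (9.11 to 20.8) in KO members, 40.2-fold lower (27.2 to 62.3). Cxcl9, a second ligand of Cxcr3, had 734 CPM (710 to 758) and 49.6 CPM (39.7 to 61.1), 14.8-fold lower (12.0 to 18.5). The intervals of the 2 libraries lay far apart for both genes. The folds depended on the cells taken: among members of 2000 to 5000 UMIs, Cxcl10 was 6.29-fold and Cxcl9 8.06-fold lower on the CPM + 1 scale. Cxcl11, the third ligand of that receptor, had 128 UMIs in WT (25.2 CPM) and 0 in KO, at least 14.9-fold lower with 3 counts as the floor for the KO library. Cxcl10 in the narrowed set had 578 and 9.30 CPM and Cxcl9 618 and 32.5 CPM. Nonclassical monocytes held less of both even in WT, with 54.4 CPM of Cxcl10 and 42.1 CPM of Cxcl9.

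Only a minority of WT members carried these chemokines. At 1000 UMIs, Cxcl9 was seen in 14.5% (12.2 to 17.1) of WT and 1.82% (0.670 to 3.91) of KO members, and Cxcl10 in 9.99% (8.07 to 12.2) and 1.21% (0.331 to 3.07). Unthinned, the shares were 21.5% and 3.21% for Cxcl9 and 17.9% and 2.33% for Cxcl10. WT B cells had Cxcl9 in 1.66% (0.797 to 3.02) and Cxcl10 in 1.32% (0.574 to 2.59) of cells at 1000 UMIs, below the WT members. KO B cells had either gene in 0 of 1017 cells, with an exact upper limit of 0.362% for each. The Cxcl9 interval of KO members lay above that limit. The Cxcl10 share of KO members, 4 in 330 cells, had an interval that reaches down to 0.331%, below it. Cxcl10 in KO members was thus not clear of the B-cell level. Of 478 WT cells of the narrowed set, 80 had a UMI of either gene and averaged 15.7 UMIs of the 25 listed genes, against 3.87 in the other 398; the 2 chemokines are themselves on the list. Only 4 of 278 KO cells had one.

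The cell-intrinsic defence genes followed the same direction. Iigp1, an immunity-related GTPase that disrupts parasite vacuoles, had 360 CPM in WT and 20.3 CPM in KO members, 17.7-fold lower (12.8 to 25.4). Gbp2, a guanylate-binding protein gene, had 489 and 69.3 CPM, 7.06-fold lower (5.89 to 8.53), and Gbp5, which promotes inflammasome assembly, 285 and 25.3 CPM, 11.2-fold lower (8.36 to 15.5). The ratios of these 3 genes all lay clear of 1 beyond counting error. Serpina3g, a protease inhibitor, had 159 and 12.4 CPM, and AW112010, an interferon-induced transcript, 1543 and 156 CPM. The smallest difference on the list was that of Irgm2, an immunity-related GTPase, with 66.7 and 29.3 CPM and a log2 ratio of -1.16. It was short of 2-fold among members of 2000 to 5000 UMIs (-0.64).

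**Figure D2:**
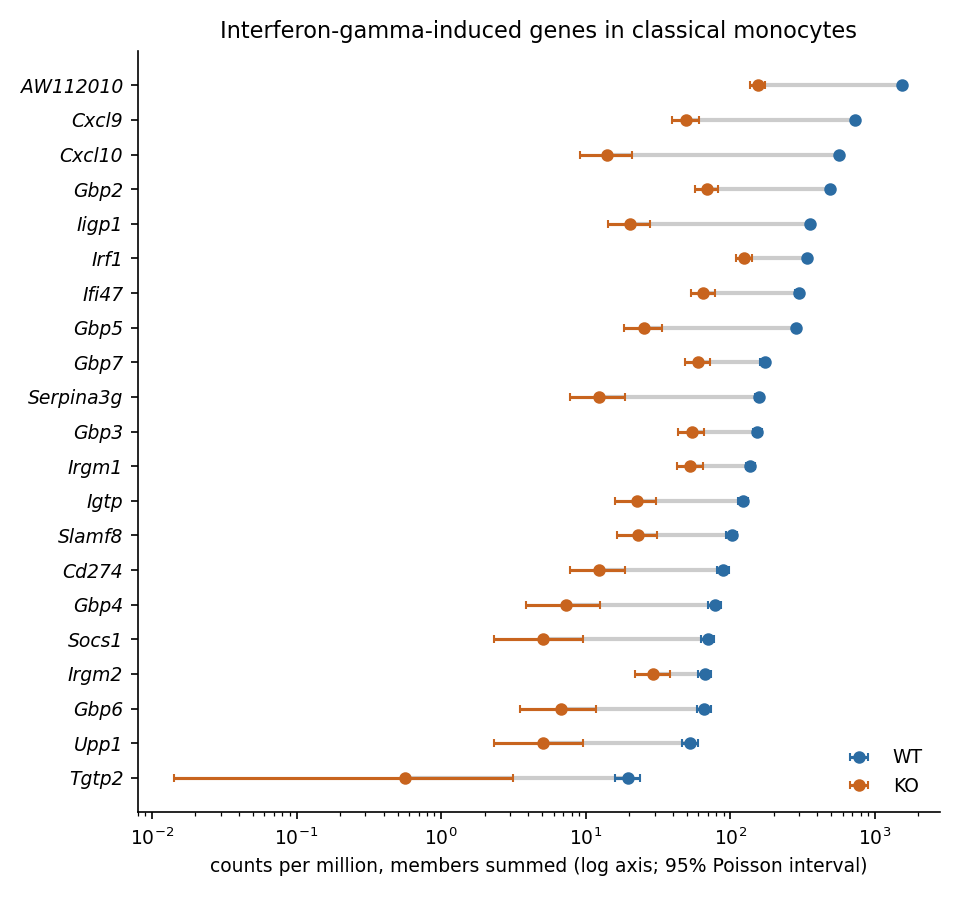
Points give the summed CPM (log axis) of 21 of the 22 interferon-gamma-induced genes compared in WT and KO classical monocytes, with exact 95% Poisson intervals. Every KO point lies left of its WT point, from Irgm2 with 66.7 and 29.3 CPM to Cxcl10 with 566 and 14.1 CPM.

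The receptor was not lower. Ifngr1, the ligand-binding chain, had 313 CPM in WT and 542 CPM in KO members, 1.73-fold higher in KO (1.60 to 1.88), and Ifngr2, the signalling chain, 129 and 124 CPM with an interval of the ratio that includes 1. Downstream, Irf1 had 340 CPM in WT and 125 CPM in KO, 2.72-fold lower (2.36 to 3.14). Socs1, the feedback inhibitor of Jak kinases, had 70.0 and 5.07 CPM, 13.8-fold lower (7.20 to 30.5). Jak1 had 262 and 221 CPM and Jak2 129 and 82.2 CPM. Of the 15 genes of interferon receptors and signalling, 4 were called lower, among them Irf1, Socs1 and Socs3, and 0 higher; Irf1 and Socs1 are also on the list of targets.

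The difference was not confined to a few cells, though the WT counts were skewed to cells with Cxcl9 or Cxcl10. Each member of at least 1000 UMIs was thinned to that depth, which left out 64 WT and 13 KO cells. The 25 listed genes then had a median of 4 UMIs per WT cell (quartiles 2 and 8, mean 6.38) and 1 per KO cell (quartiles 0 and 1, mean 0.973). No UMI of the list was found in 4.07% of WT and 49.7% of KO cells. At least 5 were found in 49.0% of WT and 3.64% of KO cells. The narrowed set had means of 5.85 and 0.863. Without the cells holding Cxcl9 or Cxcl10 its means were 3.87 in WT and 0.766 in KO. B cells had means of 2.12 and 0.642, so part of these UMIs is found in other cells too, and the WT members stood above that level.

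**Figure D3:**
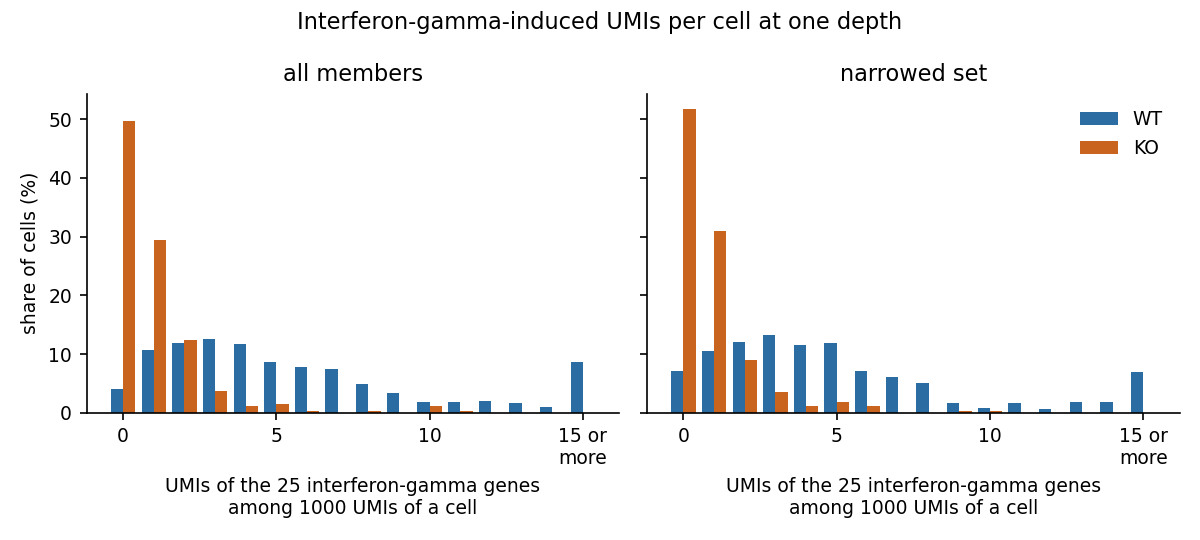
Bars give the share of cells (%) by the number of UMIs of the 25 interferon-gamma-induced genes among 1000 UMIs per cell, for all members and for the narrowed set. KO cells pile up at 0 (49.7% of all members) and WT cells spread from 0 to 15 or more, with a median of 4.

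A coarse split by Ly6c2 UMIs after thinning did not separate cells with and without this response. In the narrowed set at 1000 UMIs, WT cells with no Ly6c2 UMI averaged 6.09 UMIs of the list, those with 1 to 2 averaged 5.72 and those with 3 or more 5.90. KO cells averaged 0.673, 0.975 and 1.05 in the same order. On full counts the WT groups had 1017, 1865 and 2882 CPM of Ly6c2, and the KO groups 562, 1464 and 2398 CPM. No group lacked Ly6c2 RNA, so cells without it were not examined. Every WT mean was over 5 times every KO mean. Among the cells with a Ly6c2 UMI (375 WT and 165 KO), 21 of 22 listed genes were at least 2-fold lower, with a median of -2.91.

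Calls were fewer among genes induced mainly by type I interferon. Of 26 genes on that list 23 were compared, and 3 were called lower and 0 higher, beside 5.80% and 1.48% of all genes. The median log2 ratio was -0.08, near the median of all genes. The 3 were Ifit2 and Ifit3, which act against viral RNA, with log2 ratios of -2.18 and -2.25, and Isg15, a ubiquitin-like modifier, with 182 CPM in WT and 73.8 CPM in KO. Others lay higher in KO short of 2-fold on the log2 scale used: Mx1, an antiviral GTPase, had 35.2 and 52.4 CPM and Rsad2, the antiviral protein viperin, 19.1 and 38.9 CPM. The calls moved with the cells taken. With thinning before the gate, Ifit3 was at -0.49 and Isg15 at -0.48. Among members of 2000 to 5000 UMIs, Isg15 was at -0.43, while Mx1 (1.26) and Rsad2 (1.44) were past 2-fold higher in KO. In the narrowed set 6 of 22 were lower and 1, Rsad2, higher, beside 4.14% and 1.42% of all genes. There 17 of the 22 had a ratio below 0, with a median of -0.23. The gap between this list and the interferon-gamma list was described, not tested.

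RNA of MHC class I presentation genes was lower in KO. All 20 genes of the list were compared; 14 were at least 2-fold lower and 0 higher, with a median of -1.27 (13 lower and -1.32 in the narrowed set). H2-K1, a classical class I heavy chain, had 1970 CPM in WT and 685 CPM in KO members, 2.87-fold lower (2.71 to 3.05). H2-Q7, a nonclassical heavy chain, had 312 and 37.7 CPM, 8.28-fold lower (6.48 to 10.7), though reads of the near-identical H2-Q genes may be split between them. B2m, the light chain, had 2883 and 1542 CPM, 1.87-fold lower (1.79 to 1.95). The peptide transporter Tap1 had 262 and 100 CPM, the immunoproteasome subunit Psmb9 439 and 159 CPM, and Nlrc5, the transactivator of class I genes, 200 and 65.3 CPM. Only Erap1, which trims peptides, had a ratio whose interval includes 1.

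MHC class II depended on which members were taken. In all members the median of the 10 genes compared was -0.88, with 2 called lower (Cd74 and Ciita) and 1 higher, Lgmn, a lysosomal protease, which was short of 2-fold with thinning before the gate (0.84), among members of 2000 to 5000 UMIs (0.89) and in the narrowed set (0.90). In the narrowed set the median was -1.61, with 7 lower and 0 higher. H2-Aa, the alpha chain of a class II molecule, had 1567 CPM in WT and 832 CPM in KO members, and 1132 and 272 CPM in the narrowed set. Cd74, the invariant chain, had 3231 and 1535 CPM, and 2556 and 572 CPM in the narrowed set. The members outside the narrowed set thus held more class II RNA than those inside it, in both libraries.

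Within the narrowed set, class II RNA in KO lay mostly in cells with no Ly6c2 UMI left after thinning to 1000 UMIs. On full counts these cells still had 1017 CPM of Ly6c2 in WT and 562 CPM in KO. They are therefore not a population that lacks Ly6c2. Among cells with a Ly6c2 UMI at 1000 UMIs, H2-Aa had 2196 UMIs in WT (1013 CPM) and 41 in KO (43.9 CPM), 23.1-fold lower (16.9 to 32.2), and Cd74 2337 and 182 CPM, 12.8-fold lower (11 to 15). Among cells with none (103 WT and 113 KO), H2-Aa had 1718 and 652 CPM, 2.63-fold lower (2.33 to 2.98), and Cd74 3628 and 1223 CPM, 2.97-fold lower (2.71 to 3.24). The class II medians were -2.12 and -1.19, with 7 of 10 genes called lower in each. This split was chosen after the values had been seen. Across all genes compared, 4.93% were at least 2-fold lower in the cells with a Ly6c2 UMI at 1000 UMIs and 6.97% in those with none.

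**Figure D4:**
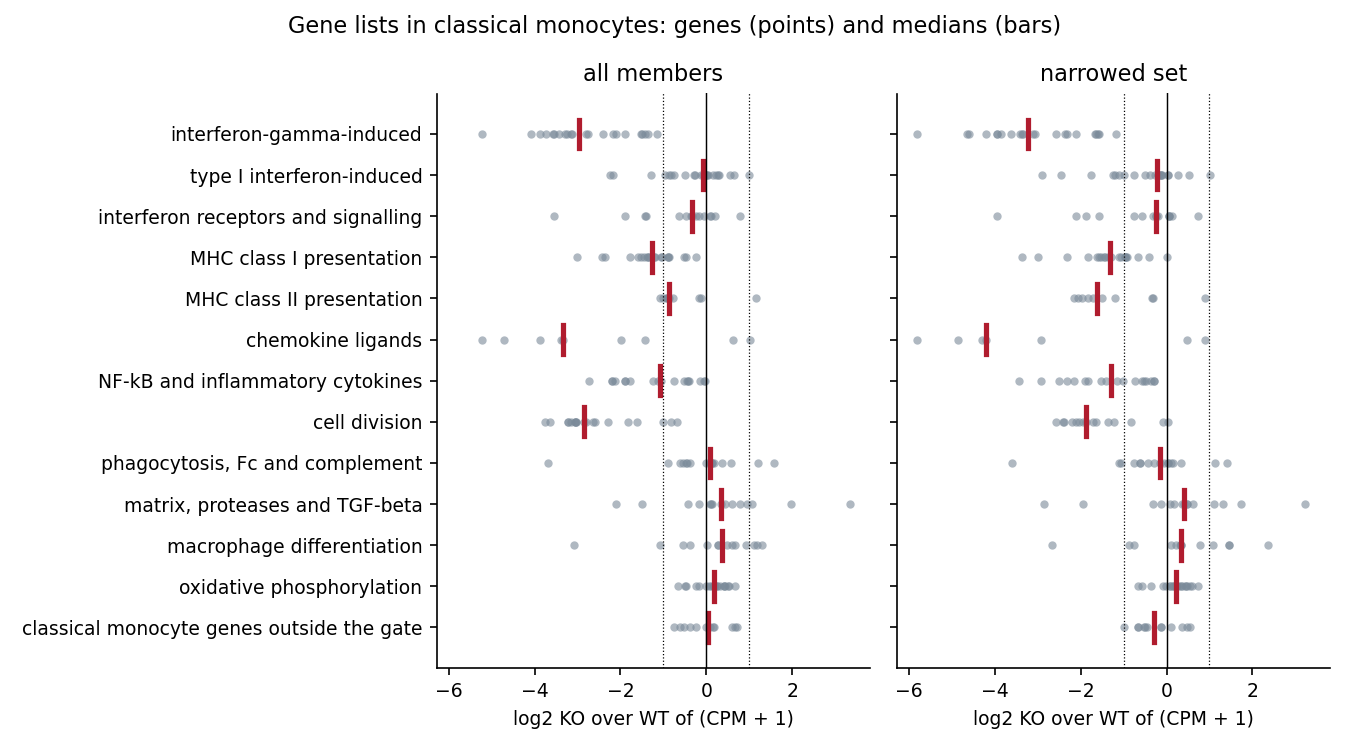
Points are the genes of 13 lists with a mean of at least 10 CPM, bars are the list medians, and dotted lines mark 2-fold; the x axis is the log2 ratio KO over WT of CPM + 1, for all members and for the narrowed set. The interferon-gamma list lies wholly below -1 (median -2.96). In the narrowed set the median moves from -0.08 to -0.23 for the type I list and from -0.88 to -1.61 for the class II list.

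RNA of other inflammatory genes was also lower in KO. Of the NF-kB and inflammatory cytokine list, 18 of 24 genes were compared; 10 were called lower and 0 higher, with a median of -1.09 (11 lower and -1.28 in the narrowed set). Tnf had 37.4 CPM in WT and 7.32 CPM in KO members, 5.11-fold lower (2.91 to 9.76), and Tnfaip3, a feedback inhibitor of NF-kB, 80.3 and 11.3 CPM, 7.13-fold lower (4.55 to 11.8). Il27, a cytokine that acts on T cells, had 55.7 and 11.3 CPM. Il1b had 125 and 73.2 CPM in the members and 138 and 47.8 CPM in the narrowed set, where it passed 2-fold. It also passed 2-fold with thinning before the gate (log2 ratio -1.30), among members of 2000 to 5000 UMIs (-1.05) and in members with under 2 lymphoid UMIs (-1.05). Nlrp3, an inflammasome sensor, had 70.8 and 69.3 CPM.

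Of the 18 chemokine ligands 9 were compared; 7 were called lower and 1 higher, with a median of -3.34. Ccl5, an attractant of T cells, had 647 CPM in WT and 63.1 CPM in KO members but 176 and 7.97 CPM in the narrowed set, and is also a marker of NK cells. Ccl4, another chemokine, had 45.0 and 3.38 CPM, and 16.4 and 1.33 CPM in the narrowed set. The gene called higher was Ccl9, with 212 and 427 CPM, 2.01-fold (1.83 to 2.21), and Ccl6 had 597 and 913 CPM. Ccl9 lay at the mark and fell short of it in most alternatives, for example at 0.75 on the log2 scale with thinning before the gate. The narrowed set left 7 genes to compare, of which 5, Ccl5 among them, were lower and 0 higher.

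Identity genes of classical monocytes did not move together. Of the 12 that the gate does not use, 0 were called in either direction, with a median of 0.03 (-0.30 in the narrowed set). Among all genes 5.80% were called lower and 1.48% higher, so a count of 0 in 12 is near that share. Plac8 had 5027 CPM in WT and 2981 CPM in KO members, 1.69-fold lower (1.64 to 1.74), and Ly6c2 was 1.53-fold lower (1.46 to 1.60). Chil3, a chitinase-like secreted protein, had 2707 and 2285 CPM, and the calcium-binding protein gene S100a4 1734 and 2857 CPM, 1.65-fold higher (1.59 to 1.71). Hp, haptoglobin, had 797 and 790 CPM, with an interval of the ratio that includes 1. Differences in both directions thus stayed within 2-fold.

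Among complement, iron and antimicrobial genes, single genes stood apart from lists with medians near 0. Cfb, complement factor B, had 251 CPM in WT and 18.6 CPM in KO members, 13.5-fold lower (9.58 to 19.7), whereas C3 had 432 and 457 CPM. Cfp, properdin, which stabilises the alternative pathway convertase, had 71.8 and 166 CPM, 2.31-fold higher (1.97 to 2.70). Acod1, which makes itaconate, had 143 and 10.1 CPM, 14.1-fold lower (8.87 to 24.0). Of 17 genes of phagocytosis, Fc receptors and complement compared, 1 was lower and 2 higher, with a median of 0.08. In the narrowed set 3 were lower and 2 higher, with a median of -0.14. Of 15 alarmin and antimicrobial genes compared, 2 were lower and 1 higher, with a median of 0.10 (0.08 in the narrowed set). Of only 6 iron handling genes compared, 1 was lower and 1 higher, with a median of -0.04 (-0.19 in the narrowed set). The neutrophil alarmin S100a9 had 2271 and 767 CPM, but B cells had 7479 and 735 CPM, so in both libraries the level was near or under that of cells that do not express it.

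Genes higher in KO were fewer and smaller in effect. Thbs1, thrombospondin-1, a matrix protein that can activate latent TGF-beta, had 53 UMIs in WT members (10.4 CPM) and 204 in KO members (115 CPM), 11-fold higher (8.11 to 15.2). At 1000 UMIs it was seen in 1.05% (0.479 to 1.98) of WT and 8.48% (5.71 to 12.0) of KO members (3.24% and 24.5% unthinned), against 0.166% and 0.0983% of B cells. In the narrowed set it had 12.7 and 127 CPM. Nonclassical monocytes had 2 and 1 UMIs of it, 2.72 and 0.970 CPM. Mmp19, a metalloproteinase, had 13.8 and 56.9 CPM, 4.13-fold higher (3.02 to 5.69), and was at 0 in nonclassical monocytes of both libraries.

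The matrix list as a whole was mixed. Of its 20 genes 15 were compared, 2 were lower and 3 higher, with a median of 0.33. Mmp14, a membrane-bound collagenase, had 46.6 CPM in WT and 10.1 CPM in KO members, 4.60-fold lower (2.85 to 7.89), and Mmp9, a gelatinase, 38.6 and 13 CPM, a difference that free-RNA subtraction removed. Timp2, an inhibitor of such proteases, had 12.2 and 26.5 CPM, with the opposite sign among members of 2000 to 5000 UMIs. Tgfbi, a TGF-beta-induced matrix protein, had 572 and 987 CPM, 1.73-fold higher (1.63 to 1.83), under the 2-fold mark.

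Macrophage genes also moved both ways, with 2 of 14 lower, 3 higher and a median of 0.37. Lpl, lipoprotein lipase, had 132 CPM in WT and 14.6 CPM in KO members, 8.99-fold lower (6.08 to 13.9). Fabp5, a fatty acid-binding protein, had 35.4 and 81.7 CPM, and Gpnmb, a lysosomal glycoprotein, 11 and 28.7 CPM, though Gpnmb was lower in KO among members of 2000 to 5000 UMIs and with thinning before the gate. Fabp5 was short of 2-fold among members of 2000 to 5000 UMIs (log2 ratio 0.30). Spp1, osteopontin, had 23 and 23.1 CPM in the members and no stable direction: its log2 ratio was 2.37 in the narrowed set, -1.51 with thinning before the gate and -2.82 among members of 2000 to 5000 UMIs. Oxidative phosphorylation (22 genes, median 0.18) and glycolysis (17 genes, median -0.31) had 0 and 1 gene past 2-fold.

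WT members included more dividing cells. At least 3 UMIs of 5 cell division genes were present in 110 WT members (11.9%, 9.88 to 14.2) and 5 KO members (1.46%, 0.475 to 3.37), and 64 of the 110 also held at least 2 lymphoid UMIs. Those in the narrowed set were 44 of 516 WT cells (8.53%, 6.26 to 11.3) and 5 of 286 KO cells (1.75%, 0.570 to 4.03). Of 19 cell division genes compared 17 were lower in KO, with a median of -2.84, and in the narrowed set 12 of 15, with a median of -1.87. Mki67, a nuclear protein of cycling cells, had 177 and 20.8 CPM in the members and 104 and 24.6 CPM in the narrowed set. In cells thinned to 1000 UMIs, Mki67 was seen in 8.94% of WT and 1.82% of KO members. The narrowed set had it in 6.69% (4.62 to 9.32) and 2.16% (0.796 to 4.64). B cells had it in 3.97% (2.56 to 5.85) and 0.983% (0.473 to 1.80), so they too had more in WT. Whether the difference in dividing cells is particular to classical monocytes was not tested. With the dividing cells left out of all members, 362 of 8170 genes (4.43%) were at least 2-fold lower and 107 (1.31%) higher.

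Of the 15 genes with the lowest ratios by the naming rule, 7 are genes of NK or T cells. Cd7, a lymphoid surface receptor, had 127 CPM in WT and 2.25 CPM in KO members but 2.98 and 0.664 CPM in the narrowed set. Gzmb, a granule protease of killer cells, had 106 and 5.07 CPM, then 9.30 and 1.99 CPM, and Xcl1, a lymphoid chemokine, 110 and 7.88 CPM, then 3.35 and 1.99 CPM. Tox, Klra4, Klrd1 and Ctla2a were low there too, with narrowed-set WT levels of 3.35 to 7.44 CPM. Most of the WT level of these genes lay in cells that the narrowed set leaves out. That set was chosen for few lymphoid UMIs, so this fall follows in part from its definition. The others kept a log2 ratio below -2.5 there: Cxcl10, Iigp1, Cxcl9, Acod1, Cfb, Ly6a, Serpina3g and Tpx2, a spindle protein. Ly6a, the surface antigen Sca-1, had 301 and 22.5 CPM, and 202 and 7.97 CPM in the narrowed set.

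The 15 highest genes were led by Thbs1, Adgrl3 and Mmp19. Adgrl3, an adhesion receptor, had 7.47 CPM in WT and 53.5 CPM in KO members, 7.16-fold higher (4.87 to 10.7), but 6.33 and 14.6 CPM in the narrowed set, and 61.2 and 215 CPM in nonclassical monocytes. Cd93, a phagocyte surface receptor, had 61.6 and 186 CPM, 3.03-fold higher (2.59 to 3.54), and Ahr, the aryl hydrocarbon receptor, 34 and 87.8 CPM, 2.58-fold (2.07 to 3.22). Dusp3, a phosphatase, had 40.5 and 111 CPM, and Rfx2, a transcription factor, 28.3 and 85.0 CPM. The other genes were Amz1, Adamts6, Eeig2, Rsrp1, Abcg3, Lilra6, Ctdspl and Cfp, at log2 ratios of 1.19 to 1.95. All 15 were also higher in KO in the narrowed set, with log2 ratios from 1.00 for Lilra6 to 3.23 for Thbs1. With thinning before the gate 5 of them were short of 2-fold: Eeig2 (0.56), Abcg3 (0.64), Ahr (0.84), Cfp (0.84) and Ctdspl (0.92). Adamts6 was at 0.93 among members of 2000 to 5000 UMIs, and Abcg3 at 0.97 with at most 1% haemoglobin.

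**Figure D5:**
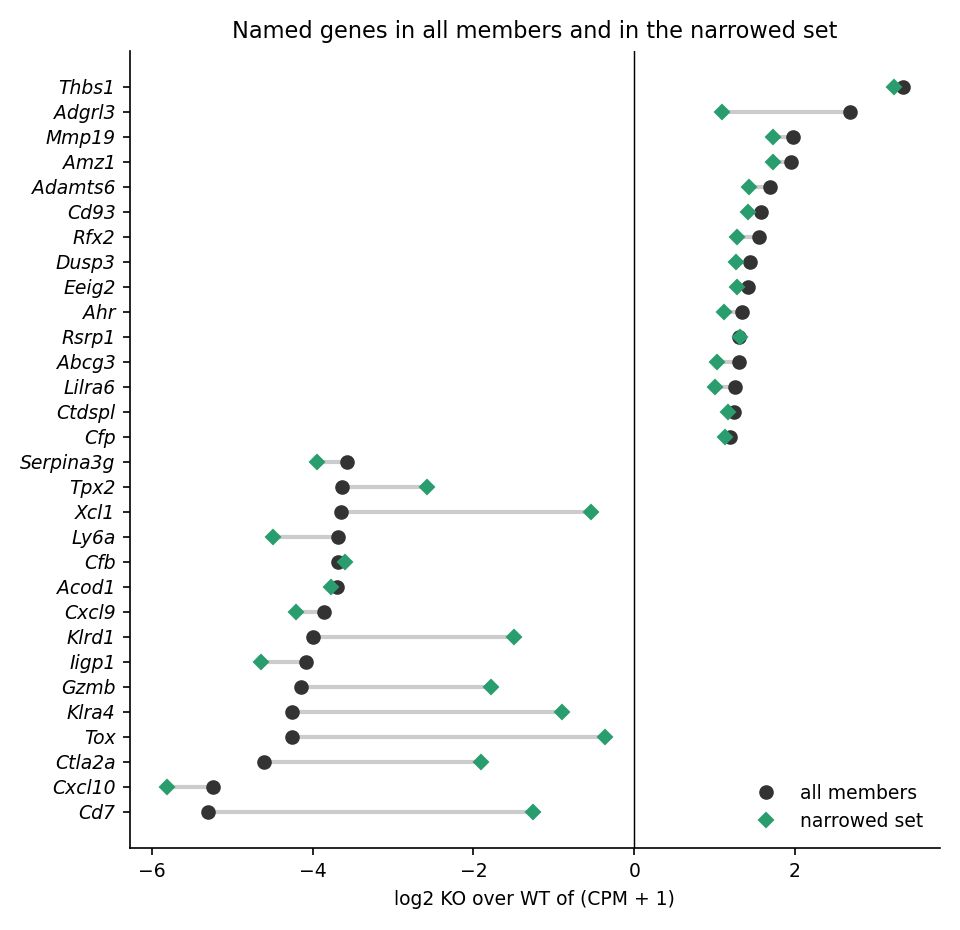
Each line joins the log2 ratio KO over WT of CPM + 1 in all members (circles) and in the narrowed set (diamonds), for the 15 lowest and 15 highest genes. Cd7, Tox, Klra4 and Xcl1 move toward 0, while Cxcl10 and Iigp1 stay below -4 and Thbs1 above 3.

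Set beside the nearest cells, the low interferon-gamma list was not particular to classical monocytes. In nonclassical monocytes 18 of 21 genes were called lower, with a median of -2.37, beside 4.35% of 8113 genes lower and 5.42% higher, and in C1q-positive macrophages 22 of 23, with a median of -1.90, beside 6.65% of 8406 genes lower and 5.56% higher. MHC class I medians were -1.06 and -1.11. The type I list had medians of -0.45 and 0.06. Class II had a median of -1.70 in nonclassical monocytes and -0.22 in C1q-positive macrophages. No test of these differences was possible with 1 library per genotype.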

How the data were processed

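Droplet 3' single-cell RNA sequencing (v3.1 chemistry, per the labels' protocols) was deposited by the authors as 2 matrices of UMI counts, raw whole numbers per gene and barcode that start at 500 UMIs per barcode. Cell Ranger 8.0.1 made them per the file headers, but Cell Ranger 6.0.1, Seurat 4.3.0 and build mm39 stand in the submitters' processing notes. Samples were grouped by the genotype label, 1 library each. Barcodes had at least 200 genes, at most 20% mitochondrial and at most 10% haemoglobin UMIs. No doublet caller was applied to the main values; Scrublet in scanpy 1.11.5 was an alternative.

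Member counts were summed per library and scaled to CPM with a pseudocount of 1, among genes with a mean of at least 10 CPM. Poisson, Clopper-Pearson and conditional binomial intervals were exact; ratios of shares had log-normal ones. All cover counting error only. No model across genes was fitted to the 2 sums; edgeR 4.0.16 and DESeq2 1.42.0 gave alternative scalings. The calculations were tested on simulated data. Free RNA was estimated at 12.8% of member UMIs in WT and 8.34% in KO.

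Named genes were the 15 lowest and 15 highest log2 ratios with at least 50 CPM and a UMI in at least 5% of members of the higher library and an interval of the ratio without 1. Gate genes, markers of other cell types, predicted and sex-linked genes, and mitochondrial, ribosomal protein, immunoglobulin, T-cell receptor and haemoglobin genes were not eligible, and genes of the 22 lists could be named too. Members and lists were chosen with earlier results of these data known. The narrowed set, the splits by Ly6c2 and 5 of the 18 alternatives were added after seeing the data. Results of a few genes that the counts include are not reported here by name.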

Additional observations from a re-analysis of the deposited data

Results flagged for a closer look

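Barcodes that met the classical monocyte gate but held over 10% haemoglobin UMIs were left out of the comparisons above, save the shares without a haemoglobin limit, and there were 254 of them in KO and 130 in WT. Their haemoglobin UMIs had medians of 30.3% and 25.2%, and Scrublet marked 66 and 38 of them as doublets. In these barcodes the interferon-gamma list had a median of -2.50, with 20 of 21 genes at least 2-fold lower in KO, beside 755 of 7556 genes (9.99%) lower.

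Arsb, a lysosomal sulfatase, had a log2 ratio that was lower in classical than in nonclassical monocytes by a difference of -2.525: 90.3 CPM in WT and 34.4 CPM in KO members, against 40.8 and 92.1 CPM in nonclassical monocytes. The same difference was -4.377 for Setbp1, a DNA-binding protein, with 85.8 and 13.5 CPM against 114 and 400 CPM. With 1 library per genotype these differences were not tested. In the narrowed set Arsb had 20.1 and 25.2 CPM and Setbp1 5.21 and 5.98 CPM, so both fell short of 2-fold there.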

How the results depend on the processing

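No paired analysis was possible because each genotype had 1 library. The log2 ratio of the member shares, -0.81, was -0.57 with a gate minimum of 5, -0.045 after thinning before the gate, -0.23 in the narrowed set and -0.63 without a haemoglobin limit, and it turned to 1.39 with at most 1% haemoglobin. The 123 genes at least 2-fold higher became 395 after thinning, 306 in members of 2000 to 5000 UMIs, 38 with a pseudocount of 10, 498 with no minimum CPM, 36 with a mean of at least 50 CPM and 74 without a haemoglobin limit. The 482 lower genes became 318 with a pseudocount of 10, 1362 with no minimum, 141 with a mean of at least 50 CPM and 308 in members with under 2 lymphoid UMIs. The lower share of calls, 79.7%, was 61.7% after thinning, 69.4% in the depth band and 89.3% with a pseudocount of 10. The interferon-gamma median was -2.11 with a pseudocount of 10 and lay between -3.23 and -2.11 in all settings. The median of classical monocyte genes outside the gate was -0.15 with a gate minimum of 5, -0.30 in the narrowed set and -0.14 without a haemoglobin limit, which also moved the median of all genes by -0.16. Signs turned for Gpnmb (-1.69 after thinning, -2.55 in the depth band), Timp2 (-0.49 in the depth band), Mmp9 and S100a9 (0.093 and 9.04 with free RNA subtracted, which left S100a9 near 0 in WT), Arsb (0.72 after thinning, 0.31 in the narrowed set, 0.39 with under 2 lymphoid UMIs) and Setbp1 (0.17 and 0.43 in the last 2 settings). Spp1, at 0.0045 in all members, was at -1.51 after thinning, -2.82 in the depth band and 2.37 in the narrowed set. Of 65 named genes past 2-fold, 13 were short of it after thinning, 7 in the depth band, 7 in the narrowed set and 8 without a haemoglobin limit. The causes were not tested. Depth limits genes at a few UMIs in KO, where 1 UMI of all members is 0.563 CPM.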
